A study of Saccharomyces cerevisiae with 4 samples.

Results

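The 9 genes TIP1 (YBR067C), TIR1 (YER011W), TIR2 (YOR010C), TIR3 (YIL011W), TIR4 (YOR009W), DAN1 (YJR150C), DAN2 (YLR037C), DAN3 (YBR301W) and DAN4 (YJR151C) of Saccharomyces cerevisiae encode related proteins of the cell wall. They were taken by systematic name from the 6063 genes read on 4 spotted whole-genome arrays on which 2 cDNA samples, labelled with Cy5 and with Cy3, competed for each spot. In experiment E3 (2 arrays), cells carrying Zap1TC, a constitutive allele of the zinc-responsive activator Zap1 that responds poorly to zinc, on the plasmid pYef2 were compared with cells carrying the empty plasmid. In experiment E4 (2 arrays), cells without a plasmid grown in low zinc medium (LZM) with 3 μM ZnCl2 were compared with cells grown in LZM with 3000 μM ZnCl2. All cultures were of DY1457, a haploid strain of mating type alpha with the alleles ade6, can1, his3, leu2, trp1 and ura3. Both E3 cultures grew in synthetic medium (SD) with galactose and 1 μM added zinc, a zinc-replete condition, and Zap1TC was driven from the GAL1 promoter, so that E3 measures an overexpressed allele. The replicates came from independent cultures. The test culture carried Cy5 and the reference culture Cy3 on every array, so that a dye effect of a single gene cannot be told apart from the condition.

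TIP1 and the TIR genes encode serine- and alanine-rich mannoproteins that are attached to the wall through a glycosylphosphatidylinositol anchor. DAN1 and DAN4 encode wall proteins of the same kind, while DAN2 and DAN3 are also counted in a family of short wall proteins, described below. In yeast these genes are best known for their expression in the absence of oxygen, when they take the place of the aerobic wall mannoproteins Cwp1 and Cwp2, and several of them also respond to cold. The sterol-responsive activator Upc2 induces them, and heme-dependent repressors such as Rox1 and Mot3 hold them down in air.

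All 9 genes were read on both E3 arrays. In E4, 7 were read on the array of replicate 1 and 5 on that of replicate 2; TIP1 and DAN1 were not analysed in E4, and TIR1 and DAN4 had a value on replicate 1 alone. The 4 arrays held 10036 to 11303 spots, and their median signal over local background was 2.04 to 3.25 in Cy3 and 2.06 to 2.78 in Cy5, with the 2 lower Cy3 values on the E4 arrays. The zinc transporter gene ZRT1, a Zap1 target, had a mean log2 ratio of 5.36 in E3 and 6.64 in E4, and ZAP1 read 6.84 and 6.47 on the E3 arrays, where the plasmid copy and the chromosomal gene are not separated. All 4 alpha-specific genes were well above background on every array, and the summed signal of the a-specific genes read, at most 200.4 per channel against at least 2592 for the alpha-specific genes, was low. In E3 the 4 alpha-specific genes were lower in Cy5, from −0.31 for SAG1 to −1.56 for MF(ALPHA)2, and 3 of 5 a-specific genes were higher. By the test described below, 29.4% of all genes were called in each direction in E3. In E4, 3 of the 4 alpha-specific genes were lower, down to −3.28 for MF(ALPHA)2, against 25% of all genes. MF(ALPHA)1 read 0.20 in E4 and did not pass the test. The single a-specific gene tested in E4, STE6, was higher, with a Cy3 signal not well above background on either array. The part of the mating-type genes in the results below was not tested.

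In E3, 8 of the 9 wall genes were higher in Zap1TC cells than in vector cells and none was lower, with a median log2 ratio of 0.49 over the 9 genes against 0.000987 over all 5780 genes tested. The call is an adjusted p under 0.05 in limma, an empirical Bayes linear model, and by the same test 29.4% of all genes were called higher and 29.4% lower, so that a call alone does not set a gene apart. None was lower at an unadjusted p under 0.05 either. By the fold rule of the study, which asks for a mean of at least 1.5-fold and at least 1.4-fold on each array, TIR1, TIR2 and DAN4 passed, 3 of 9 against 7.01% of all genes. In these bulk samples, a change in the number of expressing cells and a change in mRNA per cell cannot be told apart.

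**Figure D1:**
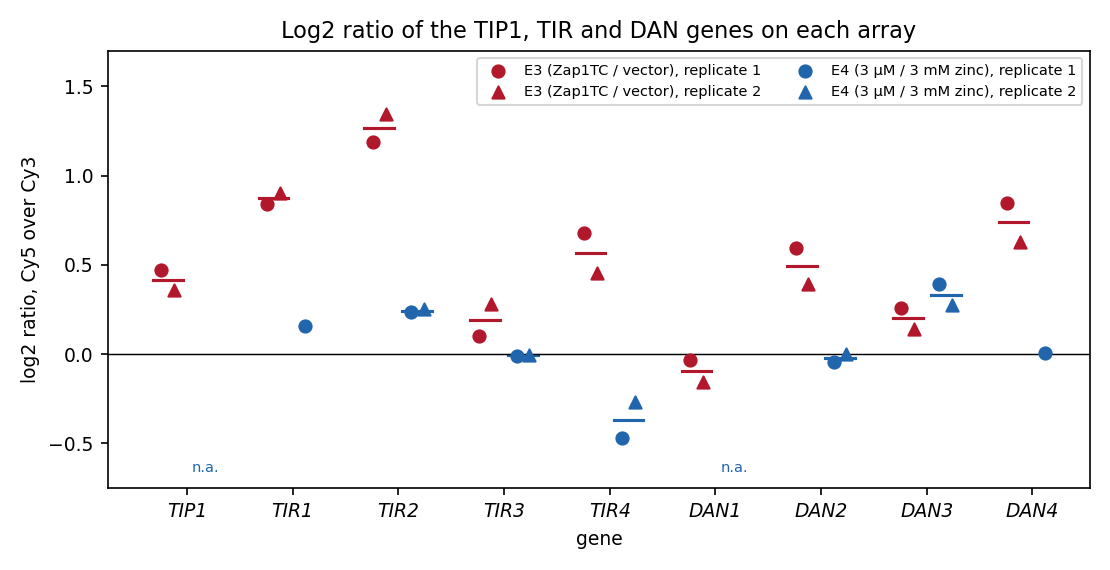
Log2 ratio (Cy5 over Cy3) of each wall gene on each array, with E3 in red and E4 in blue, circles for replicate 1, triangles for replicate 2, a short line for the mean of 2 arrays and "n.a." for genes not analysed. In E3 TIR2 lies highest, at 1.19 and 1.35, and DAN1 lowest, at −0.03 and −0.16, while in E4 the genes read on both arrays lie between −0.47 and 0.39.

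Among the 4 TIR genes the response in E3 ranged from 2.41-fold for TIR2 to 1.14-fold for TIR3. TIR2 had a mean Cy5 intensity of 616.6 over a local background of 65.8 and a Cy3 intensity of 278.2 over 52.0 on the array of replicate 1. On the array of replicate 2, the TIR2 intensities were 430 in Cy5 over a background of 59.5 and 171.9 in Cy3 over 47.4. The Zap1TC channel was thus the brighter one on both arrays. The log2 ratios of TIR2 were 1.19 and 1.35, with a mean of 1.27 ± 0.11 (SD, n = 2) and a limma adjusted p of 1.15e-07. TIR2 ranked 78 of 5780 by its mean.

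TIR1, a wall mannoprotein that cells need for growth without oxygen, was dimmer than TIR2. Its Cy5 intensities were 163.7 over a background of 62.3 and 128.9 over 58.9, and its Cy3 intensities were 95.7 over 50.1 and 72.4 over 47.4. The log2 ratios of 0.84 and 0.90 gave a mean of 0.87 ± 0.04 (SD, n = 2), or 1.83-fold (limma adjusted p = 2.62e-06). Both arrays of TIR1 lay below both arrays of TIR2. With plain subtraction of the local background the TIR1 mean was 1.66, above the 1.49 of TIR2, so that its size depends on how a dim spot is corrected.

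TIR4, which is also needed for growth without oxygen and is the chromosomal neighbour of TIR2, was brighter than TIR1, with Cy5 intensities of 344.8 and 195.2 and Cy3 intensities of 222.2 and 141.04. Its log2 ratios were 0.68 and 0.46, and its mean of 0.57 ± 0.16 (SD, n = 2) corresponds to 1.48-fold (limma adjusted p = 9.40e-05). TIR4 missed the fold rule with 1.60-fold on replicate 1 and 1.37-fold on replicate 2. TIR3, another gene needed for anaerobic growth, had log2 ratios of 0.10 and 0.28, a mean of 0.19 ± 0.13 (SD, n = 2). Its limma adjusted p of 0.0286 was the weakest among the 8 genes called, and it was 0.352 without replicate 2 of E3, 0.063 with plain background subtraction and 0.0849 with loess within print-tip blocks.

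TIP1, the founding member of the family, a cold-shock-induced mannoprotein that is also expressed in air, had Cy5 intensities of 109.4 over a background of 59.9 and 77.3 over 57.2. Its Cy3 intensities were 84.6 over 49.6 and 58.7 over 47.2. The signal was therefore modest in both channels, between 1.24 and 1.83 times the background. The log2 ratios of TIP1 were 0.47 and 0.36, with a mean of 0.42 ± 0.08 (SD, n = 2), or 1.33-fold (limma adjusted p = 0.000424). Plain background subtraction gave a mean of 1.24.

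The DAN genes ranged from 1.67-fold higher for DAN4 to no call for DAN1. DAN4, a wall mannoprotein of the anaerobic set, was bright, with Cy5 intensities of 480.3 over a background of 64.4 and 280.7 over 62.7 against Cy3 intensities of 276.6 over 54.4 and 179.955 over 48.2. Its log2 ratios were 0.85 and 0.63, and its mean of 0.74 ± 0.15 (SD, n = 2) corresponds to 1.67-fold (limma adjusted p = 1.89e-05). DAN1, which gave the family its name and stands next to DAN4 on the chromosome, read −0.03 from 2 spots on replicate 1 and −0.16 from 1 spot on replicate 2. The Cy5 signal of DAN1, 67.2 over a background of 60.5 and 63.3 over 57.6, was not well above background on either array, that is, not more than 2.6 SD of the local backgrounds above its own. No fold is given for DAN1, and its difference did not pass the test (limma adjusted p = 0.246). Plain subtraction gave a mean of −0.56 (adjusted p = 0.0611).

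DAN2 and DAN3 are listed as PAU23 and PAU24 in the RefSeq gene list, since they are also counted among the seripauperins, a large family of short and very similar wall proteins. DAN2 had Cy5 intensities of 207.1 and 148.4 and Cy3 intensities of 143.1 and 112.4 in E3. Its log2 ratios were 0.60 and 0.39, with a mean of 0.49 ± 0.14 (SD, n = 2), or 1.41-fold (limma adjusted p = 0.00012). DAN3 was close to its background, with Cy5 intensities of 81.6 over 59.3 and 67.1 over 56.5. Its log2 ratios of 0.26 and 0.14 gave a mean of 0.20 ± 0.08 (SD, n = 2; limma adjusted p = 0.0215), a call that was lost without replicate 1 of E3 (adjusted p = 0.215), without background correction (0.074), with print-tip loess (0.111) and with the deposited ratios (0.0508). With plain subtraction the DAN3 mean was 0.98.

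In order of the E3 mean, the array values of TIR2 did not overlap those of TIR1. With plain background subtraction TIR1, at 1.66, stood above TIR2, at 1.49, so that this order depends on the correction. TIP1 (1.24) and DAN3 (0.98) then also stood above DAN4 (0.88) and TIR4 (0.72). From TIR1 through DAN4, TIR4 and DAN2 to TIP1, each gene overlapped the next, so that the order of adjacent genes is not resolved. In the values as reported, both arrays of TIR1 lay above those of TIR4, DAN2 and TIP1. Both arrays of DAN4 lay above those of DAN2 and TIP1. TIP1 stood above DAN3, and DAN3 and TIR3 overlapped. TIR3 read above DAN1, whose Cy5 signal was not well above background on either E3 array, so that this step is not resolved. The 2 spots of a gene on the same array, available in 26 cases over both experiments, differed by 0.0027 to 0.33 on the log2 scale, with a median of 0.12 and the widest gap at DAN2.

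Relative to local background, the signal was lower in E4 for most genes read on all 4 arrays, and the wall genes were no exception. For the 5 genes read on all 4 arrays, TIR2, TIR3, TIR4, DAN2 and DAN3, the Cy3 signal over local background was lower on both E4 arrays than on either E3 array, as it was for 74.8% of all 4992 genes read on all 4 arrays, and 10.9% of all genes were higher. In Cy5 the E4 arrays were lower for 4 of the 5, all but DAN3, against 51.4% of all genes, and 24.9% were higher. TIR2 fell from 5.35 and 3.63 times the background in Cy3 in E3 to 1.60 and 1.51 in E4. DAN4, at 5.08 and 3.73 in Cy3 and 7.47 and 4.48 in Cy5 in E3, read 1.24 and 1.14 on the 1 E4 array with a value. TIR4 fell from 3.97 and 2.90 times the background in Cy3 in E3 to 2.59 and 2.18 in E4. The local backgrounds of these genes were higher on the E4 arrays, and not all raw intensities fell. TIR4 read 222.2 and 141.04 in Cy3 in E3 and 221.9 and 237.7 in E4. DAN3 read 81.6 and 67.1 in Cy5 in E3 and 122.1 and 128.4 in E4, while TIR2 was lower in both channels in E4. These levels come from different slides, media and labelling reactions and were not tested.

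**Figure D2:**
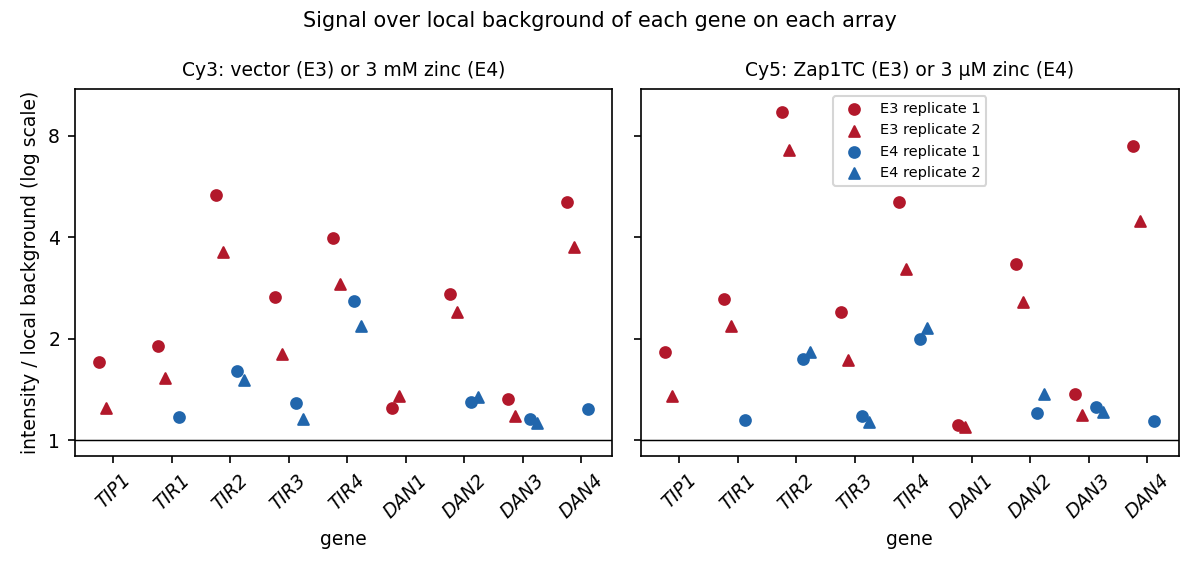
Mean intensity divided by local background (log scale) of each wall gene in Cy3 (left) and Cy5 (right), with E3 in red, E4 in blue, circles for replicate 1 and triangles for replicate 2; the line at 1 marks the background. TIR2 and DAN4 rise highest in the Cy5 channel of E3, at 9.39 and 7.24 and at 7.47 and 4.48 times the background, and the E4 points lie at 2.59 or below.

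In E4, which compared zinc-deficient with zinc-replete cells, TIR2 and DAN3 were higher in deficient cells, TIR4 was lower, and DAN2 and TIR3 did not pass the test. The median log2 ratio of these 5 genes was −0.0075, against −0.000664 over the 5129 genes tested; it is the value of TIR3, whose Cy5 signal was not well above background, and was 0.11 over the 4 genes left without it. By the same limma test, 25.9% of all genes were called higher and 25% lower, so that 2 higher and 1 lower of 5 is close to what genes in this experiment did in general. None of the 5 passed the fold rule, which 4.64% of all genes passed upward and 1.93% downward.

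TIR2 had nearly equal raw intensities in its 2 channels, 136.2 in Cy5 and 136.7 in Cy3 on replicate 1 and 151.6 and 151.9 on replicate 2, over backgrounds of 77.9 to 100.3. After normalization its log2 ratios were 0.23 and 0.25, with a mean of 0.24 ± 0.01 (SD, n = 2), or 1.18-fold (limma adjusted p = 0.0100). The call on TIR2 was lost with the deposited ratios (mean 0.14, adjusted p = 0.0777) and without replicate 1 (0.0584) or replicate 2 (0.0735) of E4.

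TIR4 was the 1 wall gene that fell. Its Cy5 intensities of 164.3 and 190.5 were below its Cy3 intensities of 221.9 and 237.7 on both arrays, and both channels were well above background. The log2 ratios were −0.47 and −0.27, with a mean of −0.37 ± 0.14 (SD, n = 2), or 1.29-fold lower in zinc-deficient cells (limma adjusted p = 0.00234). The value stayed below 0 and past the test in all 13 alternatives, between −0.54 and −0.27.

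DAN3 read 0.39 and 0.27 from 1 spot on each array, a mean of 0.33 ± 0.08 (SD, n = 2; limma adjusted p = 0.00183), at 1.13 to 1.25 times the background and with neither channel well above background on replicate 2. With plain subtraction its mean was 1.26, and it then passed the fold rule as the only gene of the 5. DAN2 read −0.04 and −0.00 (adjusted p = 0.797), with Cy5 well above background on replicate 2 alone. TIR3 read −0.01 and −0.00 (adjusted p = 0.934), and since its Cy5 signal was not well above background on either array, no fold is given. On replicate 1 alone TIR1 read 0.16, from a spot at another position than the pair read in E3, and DAN4 read 0.01, both with a Cy5 signal not well above background.

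Of the genes well above background in both channels on both E4 arrays, TIR2 and TIR4, the array values did not overlap, with TIR2 above 0 and TIR4 below. The order of DAN3, DAN2 and TIR3 is not resolved, since each had a channel not well above background on at least 1 E4 array.

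The difference between the experiments was tested in the same fit for the 5 genes read on all 4 arrays. TIR2, TIR4 and DAN2 had a lower log2 ratio in E4 than in E3, none had a higher one, and TIR3 and DAN3 did not differ past the threshold. Over all 4992 genes 21.7% were lower in E4 and 26.8% higher, and no wall gene was higher at an unadjusted p under 0.05 in limma. The median difference of the 5 genes was −0.52, against 0.023 over all genes. TIR2 differed by −1.03 (SE 0.0913, limma adjusted p = 1.20e-05), since its array values of 1.19 and 1.35 in E3 met 0.23 and 0.25 in E4. TIR4 differed by −0.93 (SE 0.107, adjusted p = 5.50e-05), with values above 0 on both E3 arrays and below 0 on both E4 arrays. DAN2 differed by −0.52 (SE 0.0962, adjusted p = 0.00128). The Cy5 signal of DAN2 was well above background on 1 of the 2 E4 arrays. DAN3 differed by 0.13 (adjusted p = 0.255), and for TIR3 (adjusted p = 0.103) no size is given, since its E4 Cy5 signal was not well above background. The media and the plasmids differ between the experiments together with the source of Zap1 activity, so that their shares in these differences cannot be told apart.

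**Figure D3:**
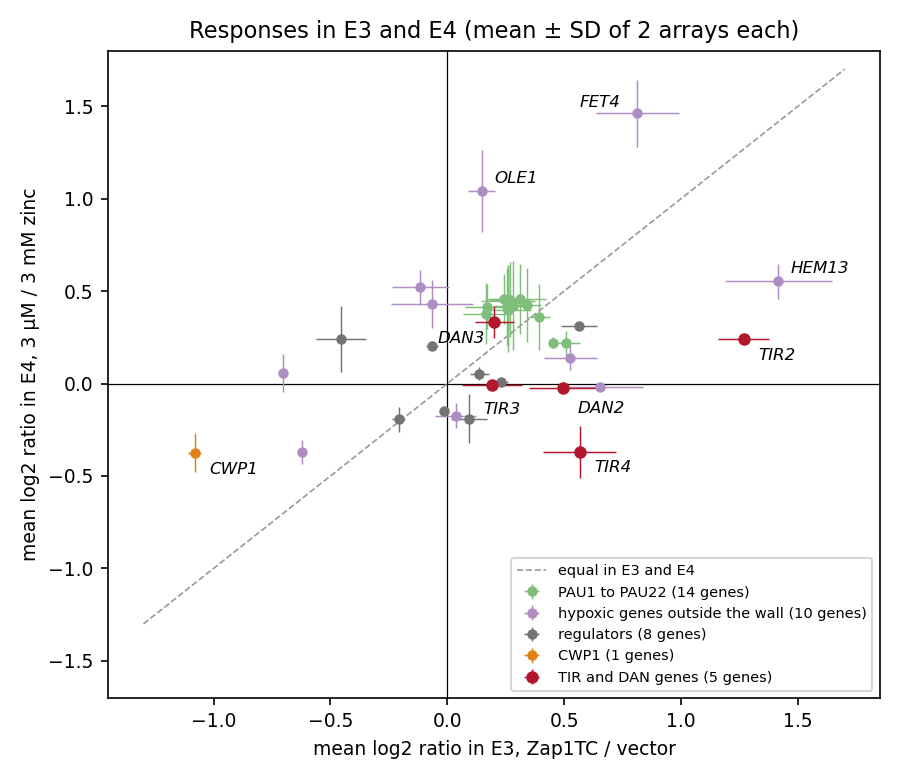
Mean log2 ratio in E3 (x axis) against that in E4 (y axis) for the genes read on all 4 arrays, with bars for the SD of 2 arrays in each experiment and a dashed line where both are equal; colours separate the wall genes from the seripauperins, other hypoxic genes, regulators and CWP1. TIR2 lies at 1.27 and 0.24 and TIR4 at 0.57 and −0.37, both below the dashed line. Most seripauperins lie above it, but of the 14 tested 0 had a higher and 2 a lower ratio in E4 by the test of the difference.

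Few of the known regulators of these wall genes were called in the same direction in both experiments. Of the 8 regulator genes read (UPC2, ECM22, ROX1, MOT3, HAP1, SUT1, TUP1 and CYC8), 2 were higher and 2 lower in E3, and 3 were higher and 2 lower in E4, with medians of 0.04 and 0.03, beside shares over all genes of 29.4% in each direction in E3 and of 25.9% higher and 25% lower in E4; none passed the fold rule. Without replicate 2 of E3 the E3 counts were 1 and 1, and in E4 they were 2 and 0 without replicate 1 and 1 and 1 without replicate 2. UPC2, the activator, read −0.08 and −0.05 in E3 (mean −0.06 ± 0.02, limma adjusted p = 0.378) and 0.22 and 0.19 in E4 (mean 0.20 ± 0.02, adjusted p = 0.0174). ROX1, the heme-dependent repressor, was lower in both, with −0.19 and −0.23 in E3 (adjusted p = 0.0142) and −0.15 and −0.24 in E4 (adjusted p = 0.0238). HAP1, the heme-responsive activator of ROX1, was higher by 0.62 and 0.51 in E3 and by 0.30 and 0.32 in E4. SUT1 was called in opposite directions. It was lower in E3, at −0.53 and −0.38 (limma adjusted p = 0.00041), and higher in E4, at 0.12 and 0.37 (adjusted p = 0.0207).

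The seripauperins PAU1 to PAU22, anaerobically induced relatives of the DAN genes, were called higher in most cases. In E3, 18 of 21 tested were higher by limma, against 29.4% of all genes, PAU3, PAU13 and PAU14 did not pass and none had a mean below 0, with a median of 0.28, from 0.09 for PAU3 to 0.54 for PAU19. In E4, 14 of the 14 tested were higher, against 25.9% of all genes, with a median of 0.42, from 0.22 for PAU22 to 0.46 for PAU16. None passed the fold rule in either experiment, and the E3 count was 8 with plain background subtraction and 4 of 14 without replicate 1 of E3; the E4 count was 9 without replicate 1 of E4. Of the 14 genes read on all 4 arrays, 2 had a lower ratio in E4 and none a higher one by the test of the difference. DAN3, at 0.33 in E4, lay within the range of the seripauperins, and DAN2, at −0.02, lay below it. Many PAU genes gave nearly the same value on an array, and signal shared between genes of such similar sequence cannot be told apart, for DAN2 and DAN3 too.

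CWP1, the aerobic wall mannoprotein that the TIR and DAN proteins replace without oxygen, was lower in both experiments. Its log2 ratios were −1.06 and −1.10 in E3, a mean of −1.08 ± 0.03 (SD, n = 2), or 2.12-fold lower in Zap1TC cells (limma adjusted p = 3.08e-07). In E4 they were −0.30 and −0.45, a mean of −0.37 ± 0.11 (SD, n = 2), or 1.30-fold lower in deficient cells (adjusted p = 0.000866). The fall was smaller in E4 by 0.71 on the log2 scale (adjusted p = 0.000122). CWP2 was not analysed.

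Other hypoxic genes were called in both directions in E3. Of 12 such genes outside the wall, 6 were higher and 2 lower in E3, with a median of 0.30. Of 10 tested in E4, 5 were higher and 2 lower, with a median of 0.28. The shares over all genes were 29.4% in each direction in E3, and 25.9% higher and 25% lower in E4. The 2 lower genes in E4, AAC3 and CYC7, had a Cy5 signal not well above background. With such genes left out 5 of 8 were higher and 0 lower, with a median of 0.48, against 1290 higher and 1167 lower of all 4667 genes. HEM13, a heme biosynthesis enzyme repressed by Rox1, rose 2.67-fold in E3 (1.25 and 1.58) and 1.47-fold in E4 (0.48 and 0.62). FET4, a low-affinity iron and zinc transporter, rose 1.76-fold in E3 (0.69 and 0.94) and 2.76-fold in E4 (1.33 and 1.59). The study lists FET4 among the Zap1 targets tested by experiment. The fatty acid desaturase gene OLE1 rose 2.06-fold in E4 (1.20 and 0.88) and read 0.15 in E3, where it did not pass the test. ANB1, the hypoxic copy of translation factor eIF5A, fell by 0.70 in E3, and so did its aerobic copy HYP2, by 0.81; the copies are nearly identical and their signals cannot be told apart. Of the 5 aerobic partner genes, 1 was higher and 3 lower in E3, and 3 were higher and 1 lower in E4, beside the same shares over all genes. CYC1, encoding cytochrome c, fell by 0.85 in E4.

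Several of the wall genes lie beside each other or beside genes of sterol uptake. TIR4, TIR2 and AUS1 are consecutive named genes, and all 3 were called higher in E3, as were 29.4% of all genes. AUS1, a sterol importer, read 0.50 and 0.39 (mean 0.44 ± 0.07, limma adjusted p = 0.000269). PDR11, the paralogous sterol importer, lies on the far side of 1 gene from TIR3 and read 0.42 and 0.47 (mean 0.44 ± 0.04, adjusted p = 0.000232), while YIL012W between them read −0.06 (adjusted p = 0.448). SLG1, the wall stress sensor gene that lies second before TIR4, was lower, at −0.45 and −0.43 (mean −0.44 ± 0.01, adjusted p = 0.000129). The adjacent DAN1 and DAN4 read −0.09 and 0.74 in E3, and neither direct neighbour of TIR1, YER010C at 0.12 and PRE1 at −0.03, passed the test there. In E4, the adjacent TIR2 and TIR4 were called in opposite directions, at 0.24 and −0.37, and AUS1 and PDR11 had no value.

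TIR2 alone was changed at least 1.5-fold in either experiment, past the test and read on all 4 arrays. The genes whose values over the 4 arrays lay nearest to it, by Euclidean distance among 4991 genes, were YDR094W (0.187), YNL143C (0.272) and YAR068W (0.279). YDR094W read 1.15 and 1.26 in E3 and 0.37 and 0.33 in E4, a likeness to TIR2 that was fixed by choosing it on these same values.

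**Figure D4:**
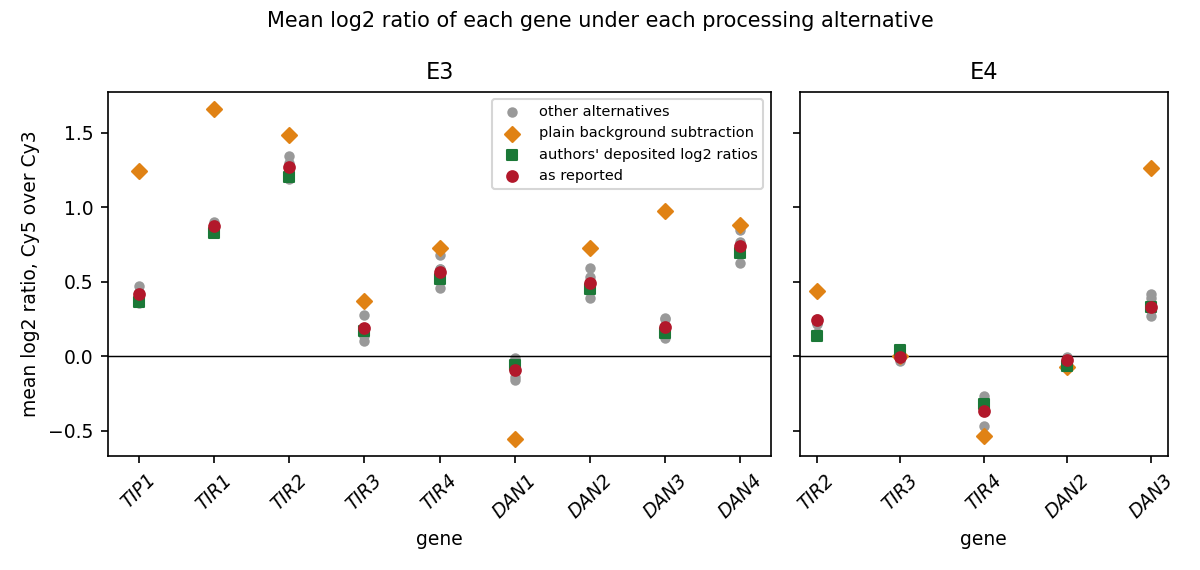
Mean log2 ratio of each wall gene in E3 (left) and E4 (right) as reported (red circles), with plain background subtraction (orange diamonds), with the authors' deposited ratios (green squares) and under the other alternatives (grey). Plain subtraction moved the dim genes most, TIP1 from 0.42 to 1.24 and DAN3 from 0.20 to 0.98 in E3, whereas TIR2 stayed between 1.19 and 1.49.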

How the data were processed

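Two-colour array values of 2 experiments, 2 arrays each, were used. The scanner tables hold mean and local background intensities as deposited by the authors, for spots that carried no flag in either channel; the authors subtracted no background. The deposited series table holds the authors' LOWESS-normalized log2 ratios of Cy5 over Cy3 (array medians −0.0211 to −0.0182) and was used as an alternative. The genome build and the probe sequences were not given in the sources used here, so neither sequences nor coordinates are printed.

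Here, intensities were background-corrected (normexp, offset 50) and loess-normalized on each array (span 0.3, 4 iterations), and replicate spots were averaged per gene as log2 ratios with limma 3.58.1 in R 4.3.3. A single fit over 4 arrays had 1 coefficient for each experiment. The tests were two-sided with Benjamini-Hochberg adjustment over all genes read on both arrays of an experiment (5780 in E3, 5129 in E4) or on all 4 (4992). The code was tested on simulated data. Only 2 arrays an experiment, and signals near background, limit the precision. A spot well above background exceeded its local background by 2.6 SD of the backgrounds of its channel, as 85.5% to 99.9% of spots did in a channel. The replicates of an experiment correlated across genes with r = 0.944 (E3) and 0.94 (E4); genes are not independent replicates. Alternatives changed the background correction, normalization, filter on dim spots, prior, block, arrays and fold rule.

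The 9 genes and the context lists were chosen with earlier results of these data known. All 9 genes are named. From the lists, CWP1, UPC2, ROX1, regulators changed at least 1.4-fold on both arrays, and SUT1, called in opposite directions, are named. So are the highest and lowest seripauperin, and the 2 highest and 2 lowest of the hypoxic and partner genes as 1 list. SLG1 and the other neighbours come from the RefSeq gene order (R64). The nearest genes by distance were sought for wall genes past 1.5-fold. CYC7, the second lowest in E4, was read there only as at least 1.23-fold lower.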

Additional observations from a re-analysis of the deposited data

Results flagged for a closer look

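For 3 wall genes the response differed between E3 and E4 by a test of the difference itself, in limma over all 4 arrays. The log2 ratio in E4 minus that in E3 was −1.03 for TIR2, −0.93 for TIR4 and −0.52 for DAN2. The range over 12 alternatives was −1.10 to −0.95 for TIR2, −1.26 to −0.82 for TIR4 and −0.80 to −0.41 for DAN2, and the highest adjusted p among them was 0.00847, 0.00718 and 0.0133. TIR4 is the gene of the 3 that was called in opposite directions, higher in E3 and lower in E4. No group has the 4 arrays that a search for a single outlying array needs.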

How the results depend on the processing

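Of the 9 wall genes, 8 were called in E3; the count was 4 to 8 when each array was left out in turn, with 4 without either E3 array, and 5 with the replicate block. Only the 5 genes read in E4 could be tested in those fits, since the others had no residual degrees of freedom. The numbers do not pair the independent cultures (deviations of same-numbered arrays correlated with r = −0.0738 over 4992 genes), and the block changed no other count of called wall genes by over 1.5 times. The fold rule in E3, passed by 3 genes, was passed by 7 with plain background subtraction, by 3 to 5 with an E3 array left out (5 without replicate 2) and by 1 at a mean of 2-fold; in E4 it was passed by 0 genes, and by 1 with plain subtraction. Over all genes, plain subtraction raised the rule's calls from 405 higher and 309 lower to 816 and 796 in E3, and from 238 and 99 to 536 and 386 in E4, and the deposited ratios gave 157 and 77 in E4. TIR3 in E4, at −0.01, turned to 0.0447 without background correction, 0.0026 with plain subtraction and 0.0445 with the deposited ratios. The cause was not tested. TIR1, TIR2, TIR4, TIP1, DAN2 and DAN4 kept their direction and call in E3 in every alternative that gave a test. TIR3 and DAN3 lost the E3 call in 4 alternatives each, and TIR2 the E4 call in 3. The E4 minus E3 difference passed the test for TIR3 without replicate 1 of E3 (adjusted p = 0.0446) and for DAN3 with print-tip loess (0.29, adjusted p = 0.0194).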
